A study of Mus musculus with 12 samples.

Results

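Tumours of a mouse model of small cell lung cancer that received entinostat together with an antibody against PD-1 were set against tumours that received entinostat alone, a comparison that asks what the antibody added once entinostat was present. It used 6 of the 12 RNA-seq libraries of the study, 3 titled as the combination and 3 titled as entinostat, chosen by their titles. The titles of the combination libraries name both agents whereas their treatment tag names only the antibody, and the titles were followed. All mice carried floxed alleles of the tumour suppressors Rb1 and p53 (Rb1 fl/fl and p53 fl/fl) and a Cre-activated Myc T58A allele (Myc lsl/lsl). Their tumours were induced with Ad5CGRP-Cre, an adenovirus given through the trachea in which the promoter of the neuroendocrine gene CGRP drives Cre. An induction age of 8 weeks is stated for an initial cohort. Once imaging showed a tumour, mice were randomised to treatment by tumour volume. Mice on entinostat received 15 mg/kg by mouth each day over 28 days, and mice on the anti-PD-1 antibody 10 mg/kg into the abdomen, repeated within each of 4 weeks. Separate doses for the combination are not stated. The other 6 libraries, 3 from mice given anti-PD-1 alone and 3 controls, entered the fit and a comparison of the antibody's effect with and without entinostat. The study's controls were methylcellulose and a rat isotype antibody, without a statement of which one the control libraries represent.

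PD-1 is an inhibitory receptor of activated T cells. Its ligand PD-L1, encoded by Cd274, is displayed by tumour and myeloid cells, often after interferon, and an antibody that blocks PD-1 releases this brake. Entinostat inhibits the class I histone deacetylases, encoded by Hdac1, Hdac2 and Hdac3, which remove acetyl groups from histones as part of corepressor complexes. Small cell lung cancer is a fast-growing neuroendocrine tumour in which antigen presentation is often low, and MYC-driven tumours of this kind can shift between neuroendocrine and other states.

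RNA came from flash-frozen tumour tissue that was dissected by hand, and the labels' protocols state poly(A) selection. The structural RNAs Rpph1, Rn45s and Rmrp nevertheless took 15.2% to 19.3% of counts in the 6 libraries, and how far the selection worked was not tested. Total counts ranged from 31295987 to 36146798 in combination libraries and from 31987261 to 40469275 in entinostat libraries. The labels give batch 2 for all libraries. Separate mice for each library are not stated, and p-values then measure only the spread between samples, part of which may be technical. The neuroendocrine markers Chga, Syp, Insm1, Uchl1 and Ncam1 were detected at 20.5 CPM (counts scaled to a common library size) or more in each of the 6 libraries. Genes of alveolar epithelium, macrophages and fibroblasts were detected too, so these are bulk samples of tumour with other lung cells. Xist, an RNA of female cells, exceeded 100 CPM in combination libraries 2 and 3 and entinostat library 1 and stayed below 2.1 CPM in combination library 1 and entinostat libraries 2 and 3. The Y-linked gene Ddx3y was at 0 CPM in the libraries with high Xist. It had 58.0 CPM in combination library 1, 3.28 CPM in entinostat library 2 and 66.6 CPM in entinostat library 3. Both groups therefore held libraries from more than 1 mouse, while libraries of the same sex may share a mouse. Combination library 3 lay apart on the first principal component of the 6 libraries, at 104.2 against −40.2 to 7.74 for the other 5. The median correlation of log2 CPM was 0.938 between libraries of the same group and 0.941 between libraries of different groups. In that measure the replicates of a treatment were no more alike than libraries from opposite groups.

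No gene passed the test. Of 17426 genes tested (edgeR quasi-likelihood test, Benjamini-Hochberg adjusted), 0 (0%) differed between combination and entinostat tumours at an adjusted p of 0.05, and each adjusted p was 1. DESeq2 called 1 gene, Ccdc172, which had 150 counts in combination library 2 and 0 counts in the other 5. Without adjustment 270 genes (1.55%) had a p below 0.05 in edgeR, 165 of them higher (0.947%) and 105 lower (0.603%) with the combination. Each combination library exceeded each entinostat library for 579 genes (3.32%), and lay below each of them for 608 (3.49%). The median log2 fold change over all genes was 0.036 and 9552 genes (54.8%) had a positive value. The median standard error was 0.38 on the log2 scale, and for 8063 genes (46.3%) the 95% interval of the log2 fold change stayed within −1 to 1. For the other genes a difference of 2-fold or more was within the interval, so a missed threshold does not show that the groups were alike. Differences are therefore described as higher or lower in these libraries.

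The gene lists fell into groups with different directions, shown in the plot of list medians. The type I interferon list had the highest median log2 fold change, 1.35, followed by mast cell, B cell, chemokine, interferon gamma, T cell and MHC lists. The MYC and ribosome biogenesis list, the hypoxia and glycolysis list, and the erythroid and muscle lists were among those below the median of all genes. Leaving out a library changed the sign of the median for 24 of 38 lists, and other scaling factors changed it for 3, the Notch, deacetylase and apoptosis lists, whose medians were all near 0. No test was run over any list.

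**Figure D1:**
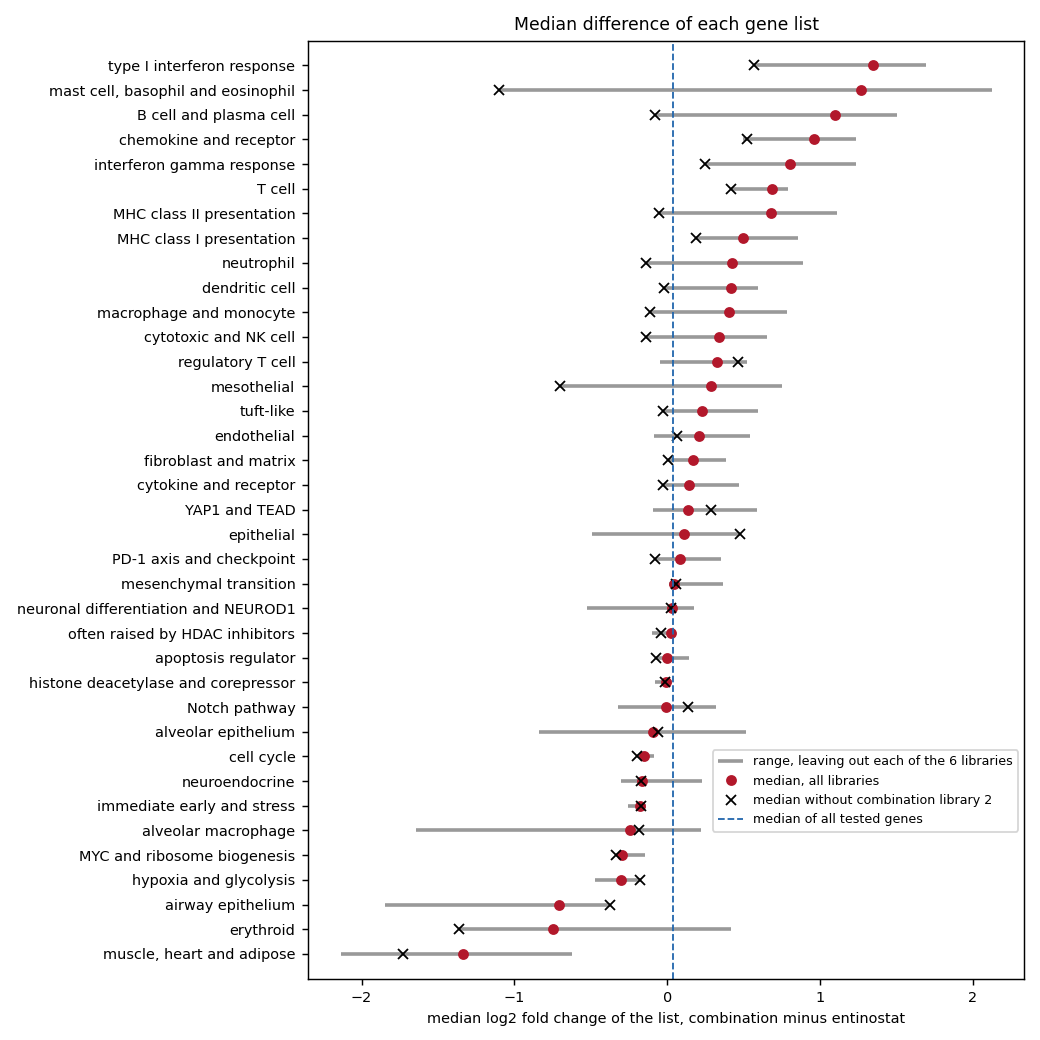
Median log2 fold change of the members of each gene list, combination minus entinostat (x axis), with lists ordered by their median from top to bottom. Red points use all libraries, grey bars span the fits that leave out each of the 6 libraries in turn, crosses leave out combination library 2, and the dashed line is the median of all 17426 tested genes (0.036). Most immune lists move towards 0 or past it without combination library 2, while the type I interferon list stays at 0.57 and the MYC list at −0.34.

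The 10 genes with the smallest unadjusted p among those higher in each combination library included a growth factor receptor, matrix genes and a calcium channel. Ret, a receptor tyrosine kinase for ligands of the GDNF family that is expressed in neural and neuroendocrine cells, had 3.57, 3.62 and 2.51 CPM in combination libraries 1, 2 and 3, against 0.791, 1.14 and 1.04 CPM in entinostat libraries 1, 2 and 3. Every combination library was above every entinostat library, at a low level throughout. The log2 fold change was 1.71 (SE 0.48, unadjusted p = 0.00427), and it lay between 1.57 and 1.98 under every alternative tried. In the libraries without entinostat, Ret had 4.71, 2.19 and 7.40 CPM with anti-PD-1, against 5.89, 8.82 and 4.43 CPM in control libraries.

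Itpr3, a calcium release channel of the endoplasmic reticulum, had 67.7, 59.3 and 68.8 CPM in combination libraries 1, 2 and 3, against 21.7, 38.2 and 15.3 CPM in entinostat libraries 1, 2 and 3. The combination libraries were close together and all higher, with a log2 fold change of 1.38 (SE 0.49, unadjusted p = 0.0158). Thbs2, a matrix glycoprotein that inhibits blood vessel growth, had 14.2, 21.7 and 14.6 CPM in combination libraries 1, 2 and 3, against 6.07, 5.94 and 7.27 CPM in entinostat libraries 1, 2 and 3. Its entinostat values were nearly equal and its combination values all higher, giving a log2 fold change of 1.39 (SE 0.49, unadjusted p = 0.0150). Lrp1, an endocytic receptor for many matrix and protease ligands, had 171, 159 and 185 CPM in combination libraries 1, 2 and 3, against 128, 108 and 105 CPM in entinostat libraries 1, 2 and 3. The groups did not overlap, and the log2 fold change was the smallest of these 10 genes at 0.59 (SE 0.19, unadjusted p = 0.00835). In anti-PD-1 against control libraries Itpr3, Lrp1 and Acsf2 were also higher with no overlap, with log2 fold changes of 1.66, 1.32 and 1.76. Zfp759 was lower there with no overlap, at −0.25, and the other genes of the 10 overlapped.

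Metabolic genes of the mitochondrion stood among the 10. Uqcrb, a subunit of respiratory complex III, averaged 87.0 ± 25.3 CPM with the combination and 48.1 ± 11.2 CPM with entinostat alone (SD, n = 3 each), a log2 fold change of 0.86 (SE 0.27, unadjusted p = 0.00788). Acsf2, an acyl-CoA synthetase of fatty acid metabolism, averaged 12.5 ± 3.02 CPM with the combination and 4.35 ± 1.598 CPM with entinostat alone (SD, n = 3 each), a log2 fold change of 1.52 (SE 0.48, unadjusted p = 0.00814). Neither gene overlapped between the groups. Trp53inp1, a p53 target that acts in stress responses and autophagy, had 21.3, 41.2 and 32.9 CPM with the combination, against 18.2, 20.1 and 15.1 CPM with entinostat alone, and its log2 fold change was 0.84 (SE 0.29, unadjusted p = 0.0142). The lowest combination value was close to the highest entinostat value.

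The remaining 3 genes varied more within the combination group. The zinc finger gene Zfp759 had 7.23, 15.4 and 19.2 CPM with the combination, against 1.43, 5.04 and 6.90 CPM with entinostat alone, with a log2 fold change of 1.65 (SE 0.51, unadjusted p = 0.00786). Adamts10, a secreted metalloprotease of the extracellular matrix, had 58.3, 43.1 and 149 CPM with the combination, against 27.4, 37.3 and 32.2 CPM with entinostat alone, a log2 fold change of 1.37 (SE 0.46, unadjusted p = 0.0116). Zcwpw1, a reader of methylated histone H3, had 4.77, 5.03 and 32.5 CPM with the combination, against 4.37, 3.51 and 3.12 CPM with entinostat alone. In both genes combination library 3 was far above the other 2 combination libraries, and without it the log2 fold change was 0.65 for Adamts10, with an unadjusted p of 0.109, and 0.42 for Zcwpw1, against 1.94 for Zcwpw1 with it.

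**Figure D2:**
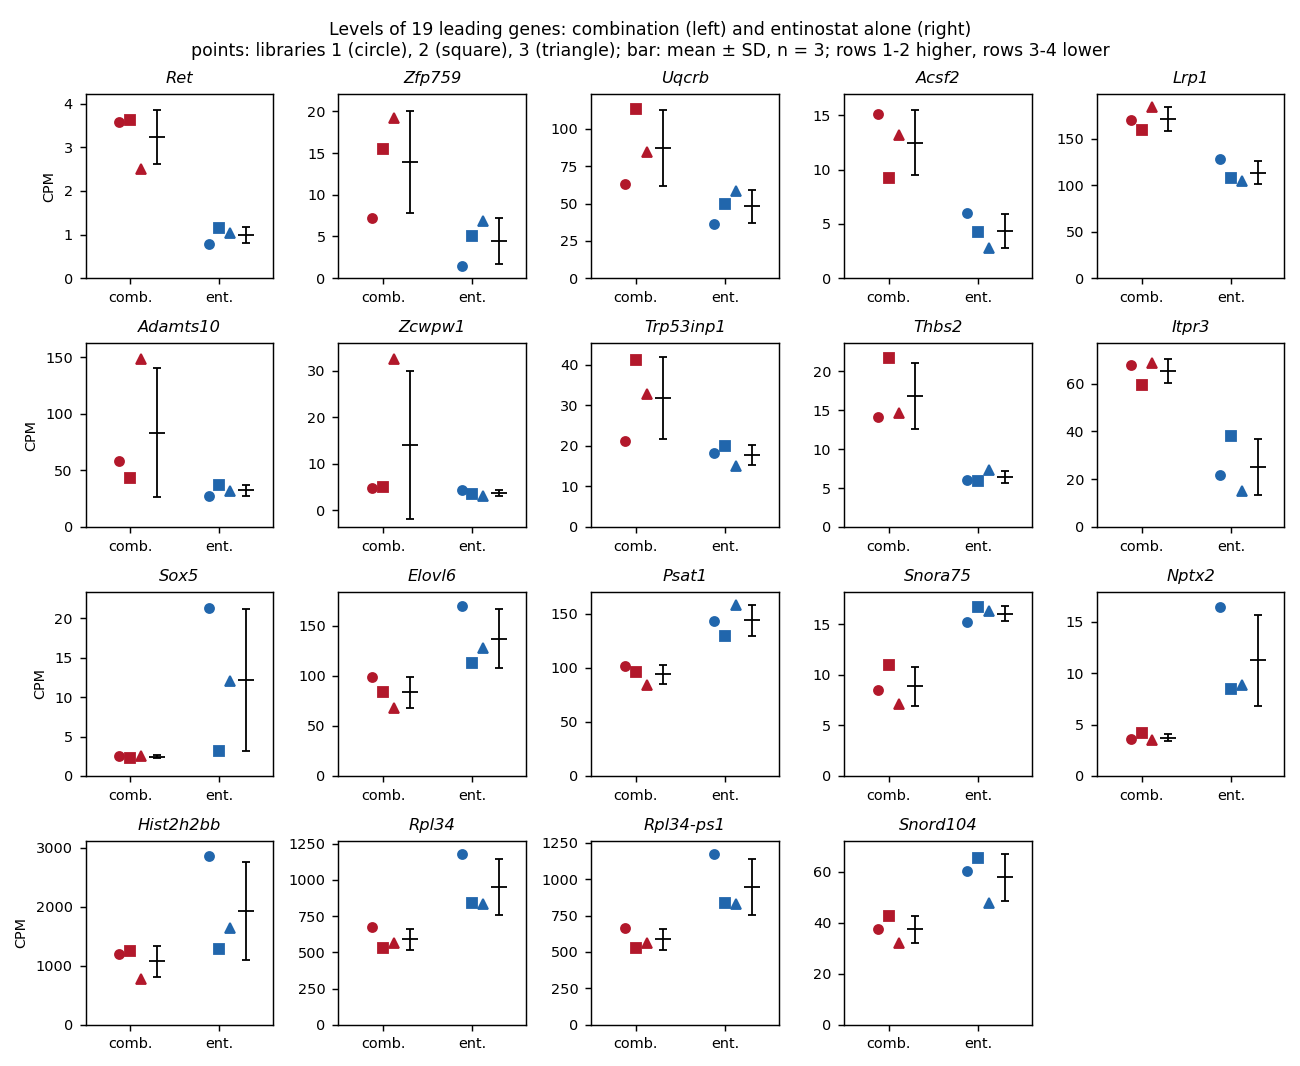
CPM (y axis, linear, a scale per gene) of 19 leading genes in the 3 combination libraries (left, red) and the 3 entinostat libraries (right, blue), with circles, squares and triangles for libraries 1, 2 and 3 and bars for the mean ± SD (n = 3). The upper 10 genes are higher and the lower 9 lower in each combination library. Ret and Itpr3 show a clear gap between groups, while Zcwpw1 and Adamts10 are far highest in combination library 3 and Sox5 in entinostat libraries 1 and 3.

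Among the genes lower with the combination, Sox5 had the smallest p of all genes. Sox5, a transcription factor of the SOXD group that acts in neural and cartilage development, had 2.57, 2.29 and 2.49 CPM in combination libraries 1, 2 and 3, against 21.3, 3.22 and 12.0 CPM in entinostat libraries 1, 2 and 3. The combination libraries were nearly equal, and entinostat library 2 lay just above them while the other 2 entinostat libraries were several times higher. The log2 fold change was −2.31 (SE 0.59, unadjusted p = 0.00205) and between −2.77 and −1.64 under every alternative. Nptx2, a secreted pentraxin of neuronal synapses, had 3.54, 4.15 and 3.52 CPM with the combination, against 16.4, 8.46 and 8.89 CPM with entinostat alone. All combination values were lower, with a log2 fold change of −1.59 (SE 0.55, unadjusted p = 0.0135).

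Biosynthetic enzymes made up another group. Psat1, an aminotransferase of serine synthesis, had 102, 95.9 and 84.4 CPM with the combination, against 144, 129.7 and 158 CPM with entinostat alone, a log2 fold change of −0.61 (SE 0.20, unadjusted p = 0.00891). Elovl6, which elongates fatty acids, had 98.6, 84.0 and 68.1 CPM with the combination, against 170.0, 113 and 128 CPM with entinostat alone, a log2 fold change of −0.72 (SE 0.22, unadjusted p = 0.00671). Genes of this set were named on condition that the groups did not overlap, and both enzymes had differences of less than 1 on the log2 scale.

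The other genes of this set make histones, ribosomes or small nucleolar RNAs. Hist2h2bb, a histone H2B gene, had 1198, 1258 and 768 CPM with the combination, against 2863, 1283 and 1646 CPM with entinostat alone, and its log2 fold change was −0.85 (SE 0.29, unadjusted p = 0.0136). The highest combination value was just below the lowest entinostat value, and without entinostat library 1 the log2 fold change of Hist2h2bb was −0.45. Histone H2B genes are close copies of each other, so how reads were divided among them is uncertain. Rpl34, a protein of the large ribosomal subunit, had 671, 529 and 568 CPM with the combination, against 1175, 843 and 832 CPM with entinostat alone. Its processed copy Rpl34-ps1 had nearly the same values and the pair cannot be counted as separate genes. The log2 fold change of Rpl34 was −0.69 (SE 0.24, unadjusted p = 0.0139). In anti-PD-1 against control libraries Rpl34 was higher with no overlap, at a log2 fold change of 0.77. Elovl6 was lower there with no overlap, at −0.53. Snora75 and Snord104, small nucleolar RNAs that guide the modification of ribosomal and other RNAs, are described with the rest of their family below.

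Genes of the type I interferon response were higher in these libraries as a list. The list holds the signal transducers Stat2 and Irf9, the amplifying factor Irf7, sensors of viral RNA and DNA, and effectors that block viral replication. All 21 tested members had a positive log2 fold change, against 54.8% of all genes, with values between 0.14 and 2.40 and a median of 1.35. None passed the adjusted test. An unadjusted p below 0.05 with a higher value was found for 4, against 0.947% of all genes, and 3 lay above each entinostat library in each combination library, against 3.32% of all genes. The summed level of the list was 98.8, 160.5 and 70.4 CPM in combination libraries 1, 2 and 3, against 70.4, 59.2 and 68.0 CPM in entinostat libraries 1, 2 and 3. Combination library 2 was far above all others, and combination library 3 was level with the highest entinostat library. In bulk tissue more cells of a type and more RNA per cell cannot be told apart, nor can fewer cells and less RNA per cell.

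Isg15 and Bst2 are shown with their promoters because they had an unadjusted p below 0.05 and a promoter that holds the motif of interferon-stimulated genes. The sequences are the 250 bases before the start of each gene in RefSeq (GRCm38.p6), 5′ to 3′ on the strand of the gene, at chr4:156200819-156201068 (minus strand) for Isg15 and chr8:71537473-71537722 (minus strand) for Bst2. Capitals mark matches of the motif, GAAA followed after any 2 bases by another GAAA, the core of the interferon-stimulated response element, and overlapping matches run together.
Isg15: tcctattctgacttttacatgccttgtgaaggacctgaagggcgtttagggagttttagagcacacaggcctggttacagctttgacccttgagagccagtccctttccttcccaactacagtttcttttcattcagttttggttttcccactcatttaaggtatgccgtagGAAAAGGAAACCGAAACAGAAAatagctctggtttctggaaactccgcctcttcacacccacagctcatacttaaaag
Bst2: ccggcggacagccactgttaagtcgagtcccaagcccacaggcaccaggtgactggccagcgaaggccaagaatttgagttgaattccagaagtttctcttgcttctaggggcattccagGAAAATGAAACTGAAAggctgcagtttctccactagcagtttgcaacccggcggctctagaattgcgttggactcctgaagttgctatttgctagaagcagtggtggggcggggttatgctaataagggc

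In Isg15, 3 overlapping matches began 66 to 78 bases before the start, and in Bst2 2 began 124 to 130 bases before it. The motif, searched on both strands, was present in 8 of the 16 list members matched to a RefSeq promoter (50%). These were Stat2, Isg15, Ifit1, Ifit3, Oas1a, Oas3, Rsad2 and Bst2. Counted in the same way, over all promoters of a symbol, it was present for 3.46% of 27025 symbols. It was in 2.98% of all 32851 promoters of the same length. A match describes the letters and does not show binding.

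Isg15, a ubiquitin-like protein that is attached to other proteins after interferon, had 2.74, 5.84 and 1.21 CPM in combination libraries 1, 2 and 3, against 1.36, 0.527 and 0.733 CPM in entinostat libraries 1, 2 and 3. Combination libraries 1 and 2 were above all entinostat libraries and combination library 3 lay among them, with a log2 fold change of 1.89 (SE 0.80, unadjusted p = 0.0363). Bst2, also called tetherin, which holds budding virions at the cell surface, had 8.75, 13.2 and 6.38 CPM in combination libraries 1, 2 and 3, against 5.63, 4.48 and 1.53 CPM in entinostat libraries 1, 2 and 3. Every combination library was above every entinostat library, with a log2 fold change of 1.28 (SE 0.58, unadjusted p = 0.0480).

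Irf7, the factor that amplifies interferon production, had 5.46, 13.4 and 3.37 CPM in combination libraries 1, 2 and 3, against 3.06, 2.17 and 3.02 CPM in entinostat libraries 1, 2 and 3. The groups did not overlap, though combination library 3 was close to the entinostat libraries, and the log2 fold change was 1.43 (SE 0.53, unadjusted p = 0.0204). Zbp1, a sensor of unusual nucleic acids, had 1.69, 6.21 and 1.06 CPM with the combination, against 0.923, 0.439 and 0.886 CPM with entinostat alone, a log2 fold change of 1.99 (SE 0.90, unadjusted p = 0.0489) with no overlap. Mx1, an antiviral GTPase, had 0.800, 4.05 and 0.226 CPM with the combination, against 0.418, 0.469 and 0.0611 CPM with entinostat alone, a log2 fold change of 2.40 (SE 1.11, unadjusted p = 0.0519). In all 3 genes combination library 2 had the highest value.

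The transducers of the signal differed less. Stat2 had 13.1, 19.4 and 11.8 CPM with the combination, against 8.66, 10.4 and 12.4 CPM with entinostat alone. Irf9 had 12.7, 12.6 and 11.9 CPM with the combination, against 12.6, 11.0 and 10.2 CPM with entinostat alone. Ifit2, an RNA-binding effector, had its highest value in entinostat library 3, at 16.6, 14.8 and 17.0 CPM with the combination, against 9.67, 11.0 and 22.5 CPM with entinostat alone. The receptor chains Ifnar1 and Ifnar2 had log2 fold changes of 0.023 (SE 0.15) and 0.095 (SE 0.30). Irf9, Ifit2 and the receptor chains had the values closest to 0 among the interferon genes named here.

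Without combination library 2 the median of the type I list was 0.57, and over the fits that left out a library it lay between 0.57 and 1.69. Among libraries with high Xist, combination libraries 2 and 3 against entinostat library 1, the median was 0.77 with 17 of 21 members positive. Among those with low Xist, combination library 1 against entinostat libraries 2 and 3, it was 1.08 with 20 positive. The sign was therefore the same within both Xist classes. In anti-PD-1 against control libraries the median of the same genes was 0.94, with 19 of 21 positive, against 49.9% of all genes. Their summed level was 59.9, 89.7 and 89.7 CPM in anti-PD-1 libraries 1, 2 and 3, against 41.8, 70.4 and 69.2 CPM in control libraries 1, 2 and 3. Anti-PD-1 library 1 lay inside the control range, and control library 1 was the lowest.

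**Figure D3:**
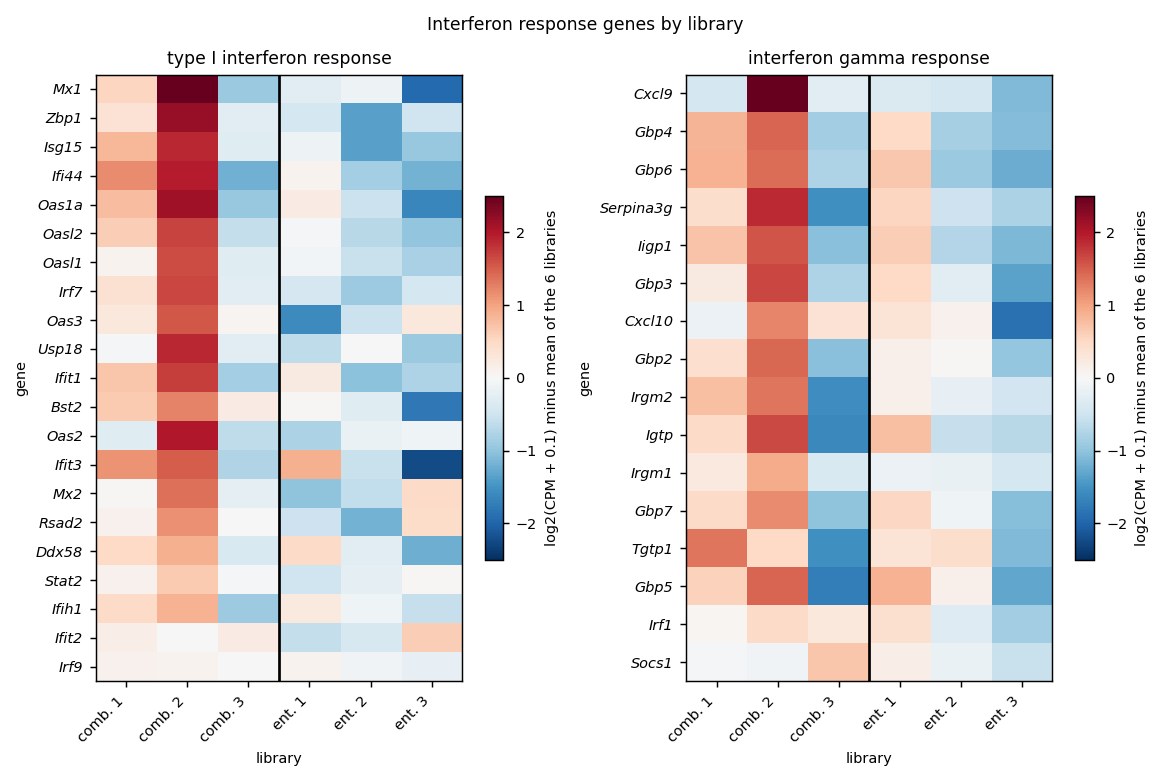
Level of the tested genes of the type I interferon list (left panel) and of 16 of the 17 tested genes of the interferon gamma list (right panel) in combination libraries 1 to 3 and entinostat libraries 1 to 3, as log2(CPM + 0.1) minus the mean of the 6 libraries, red above and blue below that mean. Genes run from the largest log2 fold change at the top to the smallest. Combination library 2 is red in nearly all rows, combination library 1 is mostly paler red and combination library 3 is mostly near or below the mean.

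The interferon gamma list also had positive values throughout, and its sum was highest in combination library 2. All 17 tested members had a positive log2 fold change, with a median of 0.80, and no member had an unadjusted p below 0.05 or groups without overlap. The summed level was 78.2, 119.9 and 43.8 CPM with the combination, against 72.5, 49.8 and 32.5 CPM with entinostat alone. Combination library 3 lay inside the entinostat range. Cxcl9, a chemokine that attracts activated T cells, had 0.0572, 1.23 and 0.0754 CPM with the combination, against 0.0660, 0.0586 and 0 CPM with entinostat alone, so that its log2 fold change of 3.32 rested on combination library 2. Iigp1, an immunity-related GTPase, had 8.40, 15.3 and 2.44 CPM with the combination, against 7.83, 3.05 and 2.29 CPM with entinostat alone. Without combination library 2 the list median was 0.25, and among high-Xist libraries it was −0.23 with 6 of 17 positive. Ifng itself had 0 counts in all 6 libraries, and with a floor of 3 counts this allows up to 0.0754 to 0.0858 CPM in combination and 0.066 to 0.0916 CPM in entinostat libraries, which covers counting error only.

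Antigen presentation lists had smaller medians. Of the MHC class I list 19 of 20 members had a positive value, with a median of 0.50, and the summed level was 500.1, 633 and 326 CPM with the combination, against 489, 393 and 254 CPM with entinostat alone. The highest sum was that of combination library 2 and the lowest that of entinostat library 3. Without combination library 2 the median was 0.19, and among high-Xist libraries it was −0.14 with 8 of 20 positive. The classical heavy chain H2-K1 had 75.2, 111 and 66.0 CPM with the combination, against 88.2, 64.1 and 48.7 CPM with entinostat alone. The light chain B2m had 84.2, 98.6 and 30.0 CPM with the combination, against 75.6, 57.2 and 21.4 CPM with entinostat alone. The 95% intervals of their log2 fold changes were −0.89 to 1.54 and −0.69 to 1.62, so a 2-fold difference in the higher direction was within both. H2-T23, a nonclassical class I molecule read by NK cell receptors, had 18.6, 31.8 and 9.55 CPM with the combination, against 11.6, 6.97 and 7.21 CPM with entinostat alone, a log2 fold change of 1.218 (SE 0.52, unadjusted p = 0.0371). Nlrc5, the transactivator of class I genes, had 3.49, 8.65 and 3.59 CPM with the combination, against 2.92, 2.58 and 2.02 CPM with entinostat alone, and was the 1 tested member of 20 that lay above in each combination library, where 3.32% of all genes did. Heavy chain genes are similar to each other and may share reads.

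All 11 members of the MHC class II list, genes of professional antigen-presenting cells, had positive values with a median of 0.68, but the sum was 164, 269 and 36.9 CPM with the combination, against 149, 133 and 75.7 CPM with entinostat alone. Combination library 3 had the lowest and combination library 2 the highest sum of the 6. Without combination library 2 the median was −0.052.

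Chemokines were higher in combination libraries 1 and 2. In the chemokine and receptor list 23 of 25 members had positive values with a median of 0.96, or 0.52 without combination library 2, and the sum was 408, 519.5 and 113 CPM with the combination, against 240.2, 235 and 160.3 CPM with entinostat alone. The neutrophil chemokines Cxcl1, Cxcl2 and Cxcl5 were the 3 members of 25 that lay above in each combination library, against 3.32% of all genes. Cxcl1 had 1.40, 2.31 and 1.73 CPM in combination libraries 1, 2 and 3, against 0.264, 0.117 and 0.916 CPM in entinostat libraries 1, 2 and 3. Its 3 combination values were all above 1 CPM and its entinostat values below it, a log2 fold change of 2.07 (SE 0.88, unadjusted p = 0.0374). Cxcl2 had 6.06, 0.981 and 1.18 CPM with the combination, against 0.660, 0.908 and 0.855 CPM with entinostat alone, with combination library 1 far above the rest. Ccl9, a chemokine of myeloid cells, had 49.7, 88.2 and 10.7 CPM with the combination, against 21.3, 12.3 and 20.7 CPM with entinostat alone, and Ccl6, another of them, had 123, 160.4 and 12.0 CPM with the combination, against 75.2, 51.4 and 25.5 CPM with entinostat alone. In both, combination library 3 had the lowest value of all 6 libraries.

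Several immune cell marker lists had positive medians beside these lists, and the alveolar macrophage list had a negative one. Summed macrophage and monocyte markers were 1157, 1353 and 275 CPM with the combination, against 966, 844 and 322 CPM with entinostat alone, with 16 of 17 members positive, a median of 0.40 and −0.12 without combination library 2. B cell and plasma cell markers summed to 107, 317 and 62.0 CPM with the combination, against 102, 61.9 and 78.2 CPM with entinostat alone. Their median was 1.10, and −0.079 without combination library 2. Jchain, the joining chain of secreted antibodies, gave most of the sum in combination library 2, with 44.8, 198 and 0.603 CPM with the combination, against 17.4, 6.73 and 23.8 CPM with entinostat alone, while the B cell marker Ms4a1 was at 0 in combination library 3. T cell markers summed to 36.9, 41.9 and 38.0 CPM with the combination, against 39.3, 29.0 and 34.5 CPM with entinostat alone, with 15 of 17 of the tested markers positive. Most of that T cell sum was Cd247, with 22.3, 20.7 and 17.9 CPM with the combination, against 18.0, 18.9 and 23.4 CPM with entinostat alone, and the defining marker Cd3e was at 0 in 4 of the 6 libraries. The T cell median was 0.68, and 0.41 to 0.79 when single libraries were left out. It was 0.27 with 10 of 17 positive among high-Xist libraries, and 0.69 with 16 of 17 positive among low-Xist libraries. Of the tested T cell markers 3 lay above in each combination library, against 3.32% of all genes. Cytotoxic and NK cell markers summed to 4.26, 9.93 and 3.85 CPM with the combination, against 6.73, 3.60 and 3.45 CPM with entinostat alone. Of regulatory T cell markers 3 of 5 were positive. Combination library 2 was the highest of the 6 for macrophage, B cell, T cell and cytotoxic sums and combination library 3 the lowest for macrophages, and the part of these cells in the interferon and MHC values was not tested. Alveolar macrophage markers summed to 201, 89.6 and 14.4 CPM with the combination, against 159, 164 and 47.8 CPM with entinostat alone, with 4 of 9 positive and a median of −0.24, or 0.22 without combination library 3. Dendritic cell markers summed to 81.6, 106 and 154 CPM with the combination, against 121, 97.3 and 103 CPM with entinostat alone, highest in combination library 3, with 9 of 12 positive and a median of 0.42, or −0.020 without combination library 2. Most of that dendritic cell sum was Fscn1, with 53.4, 64.6 and 118 CPM with the combination, against 95.4, 70.7 and 75.8 CPM with entinostat alone. The mean log2 CPM of the tested dendritic cell markers was lowest in combination library 3, at 0.40, against 0.74 to 1.54 in the other libraries of the 6. Without combination library 2 the ratio of the summed cytotoxic markers, combination over entinostat, was 0.882, against 1.31 with it.

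The target of the antibody, its ligand and T cell effector genes were at low levels in both groups. Pdcd1, which encodes PD-1, had 0.143, 0.503 and 0 CPM in combination libraries 1, 2 and 3, against 0.703, 0.527 and 0.305 CPM in entinostat libraries 1, 2 and 3. The groups overlapped, and the 95% interval of the log2 fold change, −4.26 to 1.78, was wide at this depth. Cd274 had 6.92, 5.94 and 3.85 CPM with the combination, against 4.73, 3.92 and 3.79 CPM with entinostat alone, a log2 fold change of 0.42 with a 95% interval of −0.53 to 1.37. Cd8a, the coreceptor of cytotoxic T cells, had 0.657, 0.553 and 0.452 CPM with the combination, against 0.220, 0.527 and 0.550 CPM with entinostat alone, and the granule protease gene Gzmb was at or below 0.151 CPM in all 6 libraries. Foxp3, the factor of regulatory T cells, had 12.4, 11.6 and 13.4 CPM with the combination, against 12.4, 13.0 and 13.8 CPM with entinostat alone. Its groups overlapped, with a 95% interval of −0.68 to 0.54. Cd4, the coreceptor of these cells, was lower than Foxp3 in every library, with 2.23, 1.11 and 2.56 CPM with the combination, against 2.15, 2.02 and 0.916 CPM with entinostat alone. Which cells gave the Foxp3 reads was not tested. Tigit, another inhibitory receptor of T and NK cells, had 0.429, 0.780 and 0.176 CPM with the combination, against 0.0660, 0.146 and 0.153 CPM with entinostat alone, a log2 fold change of 1.91 (SE 0.84, unadjusted p = 0.0429) at less than 1 CPM in every library. Of the checkpoint list 11 of 20 tested members had positive values, at a median of 0.084, near that of all genes. In 2 members each combination library lay above each entinostat library, against 3.32% of all genes, and in 3 below, against 3.49%.

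The list of MYC itself, its targets and ribosome assembly was lower in these libraries. Of 23 tested members 0 had a positive log2 fold change, with a median of −0.29, none passed the test and none had an unadjusted p below 0.05. In 9 members each combination library lay below each entinostat library, against 3.49% of all genes. The summed level was 5467, 6062 and 4353 CPM in combination libraries 1, 2 and 3, against 6731, 6209 and 5605 CPM in entinostat libraries 1, 2 and 3, so that the sum of combination library 2 lay within the entinostat range. The median was between −0.34 and −0.15 when single libraries were left out, and was −0.33 among high-Xist and −0.14 among low-Xist libraries. It stayed negative with both other scalings, at −0.31 with RLE and −0.27 with upper quartile factors.

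Myc, the driver oncogene, had 209, 157 and 211 CPM in combination libraries 1, 2 and 3, against 183, 244 and 273 CPM in entinostat libraries 1, 2 and 3. The groups overlapped, and the 95% interval of its log2 fold change was −0.96 to 0.40. Ncl, nucleolin, which binds pre-ribosomal RNA, had 751, 709.8 and 566 CPM in combination libraries 1, 2 and 3, against 758, 935 and 916 CPM in entinostat libraries 1, 2 and 3. All 3 combination values were lower and the log2 fold change was −0.36 (SE 0.26). Nop56, a core protein of box C/D small nucleolar ribonucleoproteins, had 465, 411 and 424 CPM with the combination, against 713, 493 and 484 CPM with entinostat alone. Its partner Nop58 had 188, 207 and 157 CPM with the combination, against 228, 219 and 235 CPM with entinostat alone. The methyltransferase of the same particle, Fbl, had 75.3, 76.3 and 69.5 CPM with the combination, against 84.3, 90.8 and 76.4 CPM with entinostat alone. These 3 core proteins of the particle shared the pattern of no overlap.

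Polr1b, a subunit of RNA polymerase I, which transcribes ribosomal RNA, had 96.4, 85.0 and 76.7 CPM with the combination, against 131, 106 and 99.7 CPM with entinostat alone. Srm, spermidine synthase, had 116, 103 and 100.05 CPM with the combination, against 145, 144 and 122 CPM with entinostat alone. The nucleolar phosphoprotein Nolc1 had 154, 155 and 152 CPM with the combination, against 164, 172 and 174 CPM with entinostat alone, with no overlap and a small difference. Bop1 and Gnl3, which act in the assembly and control of the large subunit, were the other 2 members without overlap, with log2 fold changes of −0.29 and −0.23. Cdk4 had the value closest to 0, −0.017 (SE 0.21), with 256, 267 and 164 CPM with the combination, against 238, 257 and 201 CPM with entinostat alone. The E-box CACGTG, the core motif bound by MYC with MAX, was found in the promoters of 4 of the 18 members matched to RefSeq (22.2%). These were Cdk4, Nme1, Ran and Eif4e, all with groups that overlapped. Counted in the same way, it was found for 6.86% of 27025 symbols, and in 6.02% of all promoters, in the same window. Of the members without overlap, Ncl, Nop56, Nop58, Polr1b, Gnl3 and Nolc1 were matched, and none held an E-box there.

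**Figure D4:**
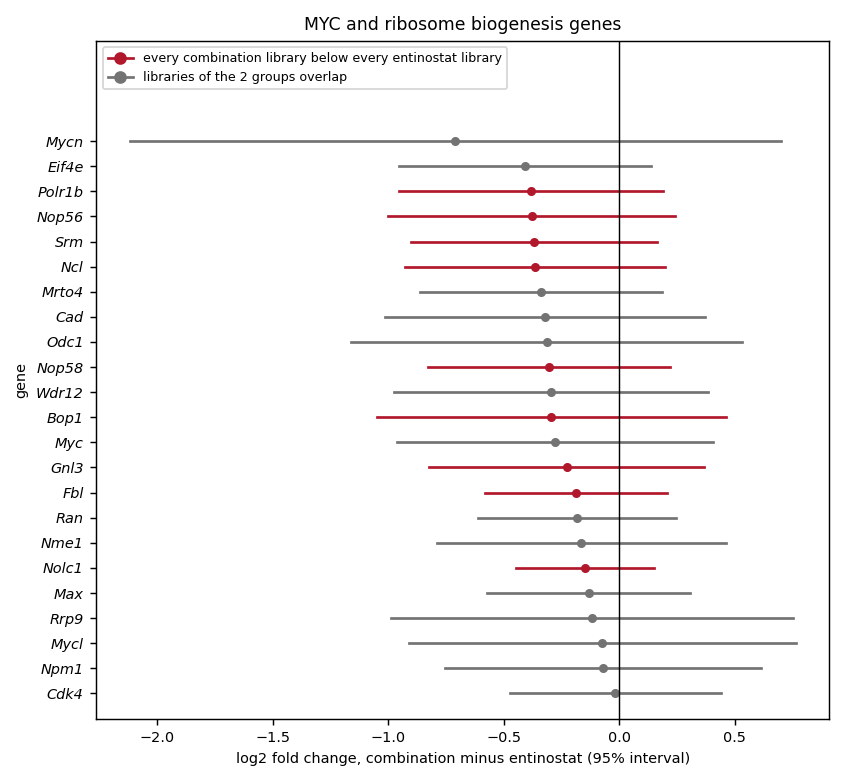
Log2 fold change (x axis), combination minus entinostat, of the 23 tested members of the MYC list with its 95% interval, ordered by value. Red marks the 9 genes in which each combination library lay below each entinostat library, and grey the genes whose libraries overlap. All points lie left of 0 and all intervals cross it.

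Small nucleolar and Cajal body RNAs, which guide the processing and modification of ribosomal and spliceosomal RNA and were taken as a family by symbol after their values were seen, were lower too. Of 109 tested, 99 had a negative log2 fold change, with a median of −0.43, 8 had a lower value with an unadjusted p below 0.05, against 0.603% of all genes, and 17 lay below each entinostat library in each combination library, against 3.49% of all genes. No member passed the test or lay above. Their summed level was 4177, 4179 and 3488 CPM in combination libraries 1, 2 and 3, against 4285, 6335 and 6866 CPM in entinostat libraries 1, 2 and 3. All combination sums were below all entinostat sums, with entinostat library 1 closest. Snora75 had 8.55, 11.0 and 7.09 CPM with the combination, against 15.2, 16.7 and 16.3 CPM with entinostat alone, a log2 fold change of −0.86 (SE 0.29, unadjusted p = 0.0133), and Snord104 had 37.6, 42.8 and 31.9 CPM with the combination, against 60.5, 65.4 and 47.7 CPM with entinostat alone, a log2 fold change of −0.63 (SE 0.22, unadjusted p = 0.0144). Mature RNAs of this class carry no poly(A) tail and mostly lie in introns of host genes. In libraries labelled as poly(A)-selected and counted by an unstated strand rule, their values are therefore uncertain. The median stayed between −0.53 and −0.30 when single libraries were left out.

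Cell cycle genes had smaller differences in the same direction. Of 27 members 21 had negative values, whereas 54.8% of all genes had positive ones, and the median was −0.15. Ccna2, the cyclin of S and G2 phase, had 137, 142 and 95.5 CPM with the combination, against 231, 172 and 168 CPM with entinostat alone, a log2 fold change of −0.61 (SE 0.27, unadjusted p = 0.0463). The kinase Bub1 of the spindle checkpoint had 71.6, 63.0 and 50.7 CPM with the combination, against 89.5, 74.4 and 80.9 CPM with entinostat alone, and Mcm3 of the replicative helicase had 94.1, 94.4 and 92.3 CPM with the combination, against 104, 98.7 and 119 CPM with entinostat alone. These 3 were the members that lay below in each combination library, against 3.49% of all genes. Mki67, a marker of cycling cells, had 1054, 644 and 735 CPM with the combination, against 593, 913 and 1006 CPM with entinostat alone, with the highest value in a combination library. The list of hypoxia and glycolysis had 13 of 15 negative values and a median of −0.30, which was 0.042 with 9 of 15 positive among high-Xist libraries. Ldha, lactate dehydrogenase, had 504, 481 and 519 CPM with the combination, against 485, 724 and 669 CPM with entinostat alone, and entinostat library 1 lay within the combination range.

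Tumour identity genes varied widely within each group. The neuroendocrine list had 7 of 20 positive members and a median of −0.17. Neurod1, the factor of a more neuronal state, had 9.92, 27.8 and 126 CPM in combination libraries 1, 2 and 3, against 62.5, 11.4 and 42.5 CPM in entinostat libraries 1, 2 and 3. Its highest value was in combination library 3, followed by entinostat library 1. Nhlh2, a neuronal factor, ranged from 0.343 to 274 CPM within the combination group and from 2.69 to 84.4 CPM within the entinostat group.

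Insm1, a zinc finger factor of neuroendocrine differentiation, was the 1 list member of 20 that lay below in each combination library, where 3.49% of all genes did, with 39.1, 48.1 and 46.9 CPM with the combination, against 67.2, 50.7 and 83.4 CPM with entinostat alone and a log2 fold change of −0.59 (SE 0.26, unadjusted p = 0.0421). Among high-Xist libraries the neuroendocrine median was 0.54 and among low-Xist libraries −0.68, so its direction differed between the classes. The neuronal list had 11 of 21 positive and a median of 0.031. Yap1, a Hippo pathway coactivator that marks the non-neuroendocrine state, had 31.8, 18.7 and 17.8 CPM with the combination, against 21.3, 16.0 and 5.74 CPM with entinostat alone. Its groups overlapped, with a 95% interval of −0.50 to 1.83, and the YAP1 and TEAD list had 9 of 14 positive members. In the Notch list 6 of 14 were positive with a median of −0.011.

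The targets of entinostat and genes that HDAC inhibitors often raise had medians near 0, and none passed the test. Hdac1 had 58.5, 70.0 and 76.6 CPM with the combination, against 81.3, 63.1 and 76.9 CPM with entinostat alone. Hdac2 had 105, 119.6 and 107 CPM with the combination, against 120.5, 127 and 129.8 CPM with entinostat alone. Hdac3 had 66.8, 83.2 and 68.6 CPM with the combination, against 69.0, 66.5 and 72.2 CPM with entinostat alone. Hdac2 was lower in each combination library by a small margin, with a 95% interval of −0.65 to 0.28. The list of deacetylases and corepressors had 9 of 20 positive values and that of genes raised by inhibitors 10 of 17, with medians of −0.011 and 0.025. Cdkn1a, the cell cycle inhibitor p21, had 6.37, 8.35 and 21.2 CPM with the combination, against 9.04, 6.06 and 8.10 CPM with entinostat alone, and combination library 3 stood above the other 5. In the apoptosis list 8 of 17 were positive with a median of −0.0037.

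Other cell types of the lung differed mainly between libraries. Alveolar epithelial markers summed to 690.1, 449.9 and 96.6 CPM with the combination, against 739, 403 and 192 CPM with entinostat alone, with 6 of 16 positive, and combination library 3 had the lowest sum. Fibroblast and matrix genes had 13 of 15 positive and a median of 0.17, which was 0.0068 without combination library 2 and −0.060 with 5 of 15 positive among high-Xist libraries. Among them Pdgfra, a growth factor receptor, had 31.5, 33.0 and 94.95 CPM with the combination, against 22.8, 18.7 and 29.0 CPM with entinostat alone, and Dcn, the proteoglycan decorin, had 7.95, 95.6 and 3.62 CPM with the combination, against 6.18, 8.64 and 20.3 CPM with entinostat alone. Combination library 3 stood out for Pdgfra and combination library 2 for Dcn. Endothelial markers had 9 of 12 positive and a median of 0.21, which was −0.084 without entinostat library 3 and −0.64 with 0 of 12 positive among high-Xist libraries. The adipocyte genes Adipoq and Cfd had 0.0572, 10.2 and 0 CPM and 0.172, 50.1 and 0.302 CPM in combination libraries 1, 2 and 3 and at most 0.611 and 1.44 CPM in entinostat libraries. Fat markers were therefore high in combination library 2, the library with the highest immune sums, and their part in its values was not tested.

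Whether the antibody's effect differed with and without entinostat was tested as the difference of 2 differences that share no library, combination minus entinostat and anti-PD-1 minus control. No gene passed, with a smallest adjusted p of 0.284 in edgeR. At an unadjusted p below 0.05 there were 1052 genes (6.04%), 665 with a positive value (3.82%) and 387 with a negative value (2.22%), and DESeq2 called 60. Anti-PD-1 minus control alone gave 1 called gene (0.00574%), Lars2, and 2691 at an unadjusted p below 0.05 (15.4%). Lars2, the leucyl-tRNA synthetase of mitochondria, had 115, 96.9 and 128 CPM in combination libraries 1, 2 and 3, against 130.3, 123 and 103 CPM in entinostat libraries 1, 2 and 3, and it had 115, 90.4 and 76.7 CPM with anti-PD-1, against 458, 300.1 and 333 CPM in control libraries. All libraries with either agent were below all controls. The interaction log2 fold change was 1.88 (SE 0.31), made of −0.072 with entinostat and −1.95 without it. The other leading genes in this direction were Cbr1, a carbonyl reductase, Ppp4c, a phosphatase subunit, Pih1d1, a cochaperone subunit, and Poglut1, a Notch glycosyltransferase, with interaction values of 1.48 (SE 0.26), 1.12 (SE 0.21), 1.25 (SE 0.25) and 1.48 (SE 0.31). Their log2 fold changes ranged from −1.28 to −0.84 for anti-PD-1 minus control and from 0.067 to 0.41 for combination minus entinostat.

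The 5 leading genes in the opposite direction were all small nucleolar or Cajal body RNAs. Scarna6 had 255, 239 and 183 CPM with the combination, against 233, 360.1 and 487 CPM with entinostat alone, and it had 563, 502 and 584 CPM with anti-PD-1, against 158, 199.5 and 132 CPM in control libraries. The combination values overlapped with that of entinostat library 1, and the anti-PD-1 values were all above the controls, with an interaction value of −2.43 (SE 0.37). Snora74a, Snora68, Snora75 and Snord104 had interaction values of −2.46 (SE 0.42), −2.81 (SE 0.51), −2.32 (SE 0.42) and −2.05 (SE 0.31). In the family 107 of 109 had a negative interaction value, with a median of −1.38, while 54.7% of all genes had a positive one, and 105 were higher with anti-PD-1 than in controls. Summed levels were 7795, 6478 and 7091 CPM with anti-PD-1, against 2033, 3639.8 and 3871 CPM in controls. The share of all counts taken by the structural RNAs Rpph1, Rn45s and Rmrp moved the same way between anti-PD-1 and control libraries, at 25.6%, 36.4% and 20.5% with anti-PD-1, against 7.84%, 13.1% and 13.2% in controls. It was 17.7%, 17.9% and 18.0% in combination libraries, against 15.2%, 18.8% and 19.3% in entinostat libraries. The part of this share in the small RNA values was not tested.

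**Figure D5:**
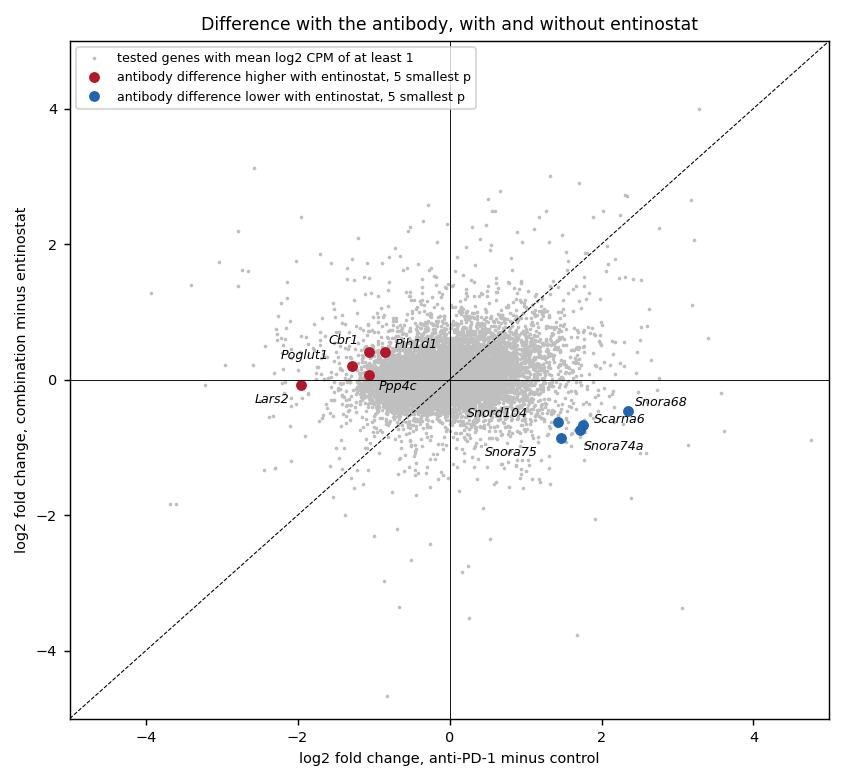
Log2 fold change of combination minus entinostat (y axis) against that of anti-PD-1 minus control (x axis) for the 13115 tested genes that averaged 1 or more in log2 CPM (grey; 1 gene lies outside the axes), with a dashed line where both are equal. Red and blue points are the 5 genes with the smallest interaction p in each direction, among genes without overlap in at least 1 pair of groups, predicted genes skipped. The red genes lie left of 0 and near or above 0 on the y axis, and the blue small RNAs lie right of 0 and below 0.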

How the data were processed

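RNA from flash-frozen RPM tumours was sequenced after poly(A) selection, per the labels' protocols. The authors deposited raw counts per gene in a single table of 22738 gene rows and 12 library columns, all used. Per the submitters' processing notes, the mouse build was mm9 and the tools included STAR 2.5.4a, Trim Galore, Trimmomatic 0.36, R 3.5.1 and DESeq2 1.22.2. Not given in the sources used here are the annotation, the strand setting and the treatment of reads with several positions, so overlapping, antisense, copied and small RNA genes are uncertain. Among small counts 65.3% to 77.2% per library were even, and 455 rows carry a suffix for a further locus.

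Libraries were grouped by title. In R 4.3.3, edgeR 4.0.16 was run with filterByExpr (17426 genes kept), TMM factors and a mean per group over all 12 libraries, which leaves 8 residual degrees of freedom. Its robust quasi-likelihood F test gave log2 fold changes, 95% intervals and p-values, adjusted by Benjamini-Hochberg with a threshold of 0.05. The comparisons were combination minus entinostat and the interaction. An exact permutation of 3 against 3 libraries cannot go below p = 0.1. CPM was scaled by TMM. At this depth the spread between libraries, more than counting, sets the precision. Scripts were tested on simulated data.

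The 38 gene lists (604 entries, 597 in the table) and the comparison were chosen with earlier results of these data known. Genes were named by a rule: per direction the 10 smallest p (5 for the interaction) with no overlap and 1 or more in mean log2 CPM, predicted genes skipped, per list up to 3 with the highest CPM, and fixed genes of the pathways. For the interaction, no overlap in either pair of groups, combination and entinostat or anti-PD-1 and control, was enough. Other list members were named after their values were seen. A few genes that the rule names are not reported here. No T cell receptor or immunoglobulin segment rows were found. Alternatives were RLE and upper quartile factors, other count filters, the 6 libraries alone, covariates for Xist and an alveolar score, a replicate block, structural RNA removed, halved counts, DESeq2 1.42.0 and leaving out each library. Promoters and their positions are RefSeq (GRCm38.p6), while the counts are on mm9, so no other coordinates are given.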

Additional observations from a re-analysis of the deposited data

How the results depend on the processing

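The count of called genes for combination minus entinostat was 0 in every edgeR setting (162 to 426 genes at an unadjusted p below 0.05), and DESeq2 gave 1, Ccdc172. For the interaction it was 0 in every edgeR setting and 60 in DESeq2, 21 higher and 39 lower, of which 22 are small RNAs; DESeq2 left 2469 adjusted p-values undefined there and 132 in the other comparison. Leaving out single libraries gave 0 calls in both comparisons, with an adjusted p as low as 0.0917 for the interaction without entinostat replicate 1. Same-numbered libraries did not deviate together (r of −0.18, −0.17 and 0.13), but 3 such values cannot settle whether the numbers pair them. The highest r, 0.35, was between combination library 1 and entinostat library 2, whose numbers differ. With the replicate number as a block 0 genes were called in either comparison (162 and 827 unadjusted). The 28 leading genes kept their sign in each setting run for them. There were 23 settings for the 20 genes of combination minus entinostat and 22 for the 8 others of the interaction. These genes were picked for a small p and for groups without overlap, so a stable sign was largely set by that choice. Of 127 list and fixed genes, which were not picked by p, 56 kept their sign in each setting. The median of all genes lay between 0.00078 and 0.060 for combination minus entinostat, and for the interaction it was −0.073 with upper quartile factors, against 0.070 with TMM factors. With 3 libraries a group and a median standard error of 0.38, the 95% interval lay within 2-fold in both directions for 46.3% of genes, and genes below a few CPM rest on few reads.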

Other observations

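The genes named here were chosen after their values were seen. Of the erythroid list 0 of 5 tested members were positive, with a median log2 fold change of −0.75. The direction turned to a median of 0.42 without entinostat library 3, and among high-Xist libraries it was 0.39 with 5 of 5 positive. The haemoglobin gene Hbb-b1 had 128, 354 and 123 CPM with the combination, against 197, 164 and 555 CPM with entinostat alone. Its highest value was in entinostat library 3, which also had the highest level of Acta1, the actin of skeletal muscle, with 0.286, 0.578 and 1.41 CPM with the combination, against 0.132, 0.703 and 33.1 CPM with entinostat alone. The cardiac myosin gene Myh6 had 3.77, 0.252 and 0.352 CPM with the combination, against 19.1, 5.07 and 2.44 CPM with entinostat alone. Mast cell and related markers had a median of 1.27, and −1.10 without combination library 2, with the tryptase gene Tpsb2 at 0.0286, 1.41 and 0.151 CPM with the combination, against 0, 0.0586 and 0.550 CPM with entinostat alone. Neutrophil markers had 7 of 10 positive values and a median of 0.42, or −0.14 without combination library 2.

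Combination library 3 had the highest value of the 6 libraries in several lineage genes. Pax5, a factor of B cells that is also made by some neuroendocrine tumours, had 0.457, 1.41 and 5.73 CPM with the combination, against 0.484, 0.410 and 0.489 CPM with entinostat alone, although the B cell genes Ms4a1 and Blk were at 0 in that library. Chat, which makes acetylcholine, had 0.229, 1.48 and 12.7 CPM with the combination, against 0.396, 0.351 and 1.222 CPM with entinostat alone. Twist1, a factor of mesenchymal cells, had 2.63, 0.604 and 7.62 CPM with the combination, against 1.23, 1.52 and 0.244 CPM with entinostat alone. Trpm5, a cation channel of tuft cells, had 1.20, 0.880 and 2.69 CPM with the combination, against 0.484, 0.410 and 0.458 CPM with entinostat alone, a log2 fold change of 1.81 (SE 0.74, unadjusted p = 0.0306) in edgeR with no overlap between the groups, while Pou2f3, the defining factor of tuft cells, was at or below 0.151 CPM in all 6 libraries.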
